A study of Mus musculus with 24 samples.

Results

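A group of 8 mouse receptor genes through which myeloid cytokines and immune complexes act were followed here in the accessible chromatin of haematopoietic stem and progenitor cells that had lost the H3.3 chaperone Daxx, or Daxx together with the transcription factor Pu.1 (gene Spi1). The genes were Csf1r, Csf2rb, Csf2rb2, Csf3r, Il6ra, Il1r1, Fcgr3 and Fcgr2b, which is 8 of the 21938 protein-coding genes of the GENCODE M21 annotation. They were taken as a named list, and every deposited ATAC-seq peak and every listed differential site lying in one of the genes or within 30 kb of it was counted as belonging to it. ATAC-seq marks open chromatin by letting a transposase insert sequencing adapters where DNA is exposed. The 11 deposited peak lists, 1 per group, merged into 100446 regions, of which 108 lay at these genes. The 3 tables of differential sites held 13 of 11927, 16 of 17311 and 57 of 50928 sites at them.

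The study sorted cells from bone marrow of C57BL/6 mice in 24 libraries and 11 groups. LT-HSC (long-term stem cells), CMP (common myeloid progenitors) and GMP (granulocyte-monocyte progenitors), labelled without a time, came from Daxx +/+ Cre +/- mice (Daxx-WT) and Daxx F/F Cre +/- mice (Daxx-KO), with 2 libraries in each of the 6 groups, and per the study's methods carried Rosa26CreERT2 and were taken 3 weeks after tamoxifen. LT-HSC taken 3 d.p.i. (days post induction) came from 3 Daxx-KO and 2 Daxx-WT samples with the same tamoxifen-activated Cre. The labels give both of these controls as Daxx +/+, whereas the study's text names Daxx +/F beside Daxx +/+ for them, so a control heterozygous for Daxx may be among them. KLS cells (lineage-negative cells with c-Kit and Sca-1) taken 3 w.p.i. (weeks post induction) came from 3 Daxx-KO samples, 2 Daxx-WT samples and 2 double-knockout samples (DKO, Daxx F/F mice that were also Pu.1 F/F, with Cre +/-), in which Mx1Cre was switched on with pI:pC. Every control therefore also carried a Cre allele and the inducer, and the interferon response that pI:pC provokes was shared by all KLS groups. Neither Cre is limited to blood cells. No group carried the loss of Pu.1 alone, so a difference between DKO and Daxx-WT cells cannot be assigned to either gene. The study's methods give a general range of young ages at treatment and no age per library. They call the libraries of a group biological replicates, and the labels do not say whether a library is 1 animal or a pool.

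Cytokine receptors of this group turn external factors into myeloid growth and activation. Csf1r is the receptor kinase for M-CSF and drives monocyte and macrophage production, Csf3r is the receptor for G-CSF, the main factor of neutrophil production, and Csf2rb is the shared signalling chain of the GM-CSF, IL-3 and IL-5 receptors. Csf2rb2 is a mouse paralog of Csf2rb that serves IL-3 alone. Il6ra and Il1r1 bind the inflammatory cytokines IL-6 and IL-1. Fcgr3 (CD16) is an activating and Fcgr2b (CD32) an inhibitory low-affinity receptor for IgG. Pu.1 is an ETS factor that binds purine-rich sites with a GGAA core and is known for regulating Csf1r and other genes of this group.

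On mm10 the genes lie as follows. Il1r1 is on the plus strand at chr1:40225080-40317257, and the neighbours Fcgr2b and Fcgr3 are on the minus strand at chr1:170958617-170976547 and chr1:171051174-171064935. Il6ra is at chr3:89864059-89913196 on the minus strand and Csf3r at chr4:126024550-126044440 on the plus strand. The paralogs Csf2rb2, on the minus strand at chr15:78282507-78305721, and Csf2rb, on the plus strand at chr15:78325752-78353847, are divergent neighbours whose windows overlap, so some regions and sites count for both. Csf1r is on the plus strand at chr18:61100598-61132149, with its first start site of a coding transcript at 61105572. Distances below run from the first coding start site in the direction of transcription, negative values being upstream.

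As checks of the labels, the peak over the Daxx start site ended 885 to 914 bp from the gene start in the 5 Daxx-WT lists and 549 to 623 bp from it in the 6 Daxx-KO and DKO lists, and a site near the 3' end of Spi1 had a log2 difference of -3.37 in DKO cells (limma, adjusted p = 1.35e-16). The other listed sites inside Spi1 were higher in DKO cells, with log2 differences of 1.33, 1.38, 1.3 and 1.19 (limma, adjusted p from 0.00233 to 0.0117). Reads per window differed between libraries, from 4.21 to 16.0 on average over the windows of the 3 tables, with both ends of that range outside the controls, and the depth behind the peak lists is unknown. List length also differed, from 22156 peaks in DKO KLS to 70455 in Daxx-KO LT-HSC. A peak missing from a list fell short of that list's threshold and was not shown to be closed. In bulk samples, fewer cells with an open region and a less open region in every cell cannot be told apart.

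The 108 regions at the receptor genes resembled the whole set in width, composition and sharing. Their widths ran from 293 to 2250 bp with a median of 820 bp, against 850 bp for all regions. Their median GC content was 48.3% against 48.4%, and 84 of them lay more than 1000 bp from every annotated start site, 77.8% against 75.3%. Peaks of all 11 lists met at 14 of the regions (13.0% against 15.0%), and 20 regions (18.5% against 18.3%) belonged to 1 list. Fcgr2b had the most regions with 19, followed by Fcgr3 with 16, Il1r1 with 15, Csf2rb and Il6ra with 14 each, Csf1r and Csf2rb2 with 13 each and Csf3r with 12.

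Most start sites carried a peak from LT-HSC onwards. A peak within 250 bp of a coding start site of Csf2rb, Csf3r, Il6ra and Fcgr3 was present in all 11 lists. Csf2rb2, Il1r1 and Fcgr2b had one in 10 lists, with DKO KLS the exception. Csf1r had one in 3 lists, CMP Daxx-WT, GMP Daxx-WT and GMP Daxx-KO. A peak in the first intron of Csf1r, 2.7 kb inside the gene, was instead present in all 11 lists. Across the lists other than DKO, 7 or 8 of the 8 genes had a start-site peak, and in DKO cells 4 of 8 did. The same share over all protein-coding genes ran from 49.1% in DKO to 65.8% in Daxx-KO LT-HSC.

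The 5 lists of the LT-HSC 3 d.p.i. and KLS cells also gave each peak a fold enrichment over background, which was read as a rank within its list because its scaling is not stated. The Il1r1 start-site peak was the strongest of these 8 peaks in each of the 4 such lists that held it. It had a fold enrichment of 10.2 in Daxx-WT and 12.0 in Daxx-KO LT-HSC 3 d.p.i., and of 10.4 in Daxx-WT and 12.0 in Daxx-KO KLS, where it stood at percentile 96.6 of both KLS lists. DKO KLS cells had no peak there. The Csf3r start-site peak was the weakest of the 8 in these 4 lists, with 3.57 and 3.64 in LT-HSC 3 d.p.i. and 5.05 and 5.97 in KLS, and it was kept in DKO cells at 4.71. The first-intron peak of Csf1r stood at 6.96 in Daxx-WT and 8.26 in Daxx-KO KLS (percentiles 70.2 and 75.3) and at 4.02 in DKO cells (percentile 28.6), and it was 1487 bp wide in Daxx-WT and 783 bp in DKO cells. The Csf2rb start-site peak was at percentile 59.6 of the Daxx-WT list (6.22) and percentile 7.68 of the DKO list (3.26). The Il6ra start-site peak had 5.99 in Daxx-WT and 7.03 in DKO cells, where it ranked at percentile 80.9. Each list is 1 value per group with no replicate error, and the Daxx-WT and DKO lists hold 33325 and 22156 peaks, so these percentiles are ranks within lists of unequal length and measure no change between groups.

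**Figure D1:**
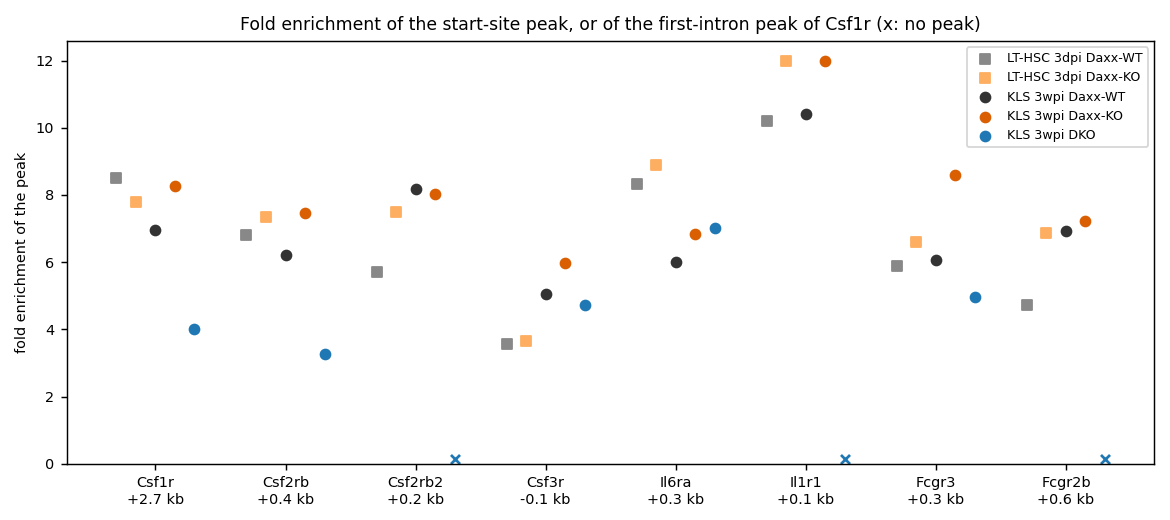
Fold enrichment (vertical axis, no unit) of the start-site peak of each receptor gene, or of the first-intron peak of Csf1r, in the 5 lists that give strengths. Squares are LT-HSC 3 d.p.i., circles are KLS 3 w.p.i., and crosses at the bottom mark the 3 genes with no peak in DKO cells, Csf2rb2, Il1r1 and Fcgr2b.

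The first comparison follows the receptor genes from stem cell to granulocyte-monocyte progenitor within Daxx-WT cells. Their number of peaks rose from 56 in LT-HSC to 73 in CMP and 83 in GMP, while the whole lists stayed at 65455, 66070 and 65306 peaks. Of the 73 CMP peaks, 27 (37.0%) had no LT-HSC peak, against 27.0% of all CMP peaks, and 11 of the 56 LT-HSC peaks (19.6%) had no CMP peak, against 28.1%. Of the 83 GMP peaks, 21 (25.3%) had no CMP peak, against 18.7% of all, and 11 of 73 CMP peaks (15.1%) had no GMP peak, against 20.0%. With 1 list per group these shares carry no test. Regions open in CMP and GMP but not in LT-HSC made up 22.4% of the receptor regions (22) against 13.7% of all, and regions open in LT-HSC alone 7.14% (7) against 17.3%. The regions open in all 3 populations made up 42.9% (42) against 42.5%.

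The gain along this path was spread over the genes. Counted as open regions, Csf3r held 3 in LT-HSC, 8 in CMP and 11 in GMP, 5 of its 8 CMP peaks being absent from LT-HSC. Its 3 LT-HSC peaks, at -0.1, 22.6 and 33.6 kb, were also the 3 Csf3r regions found in all 11 lists. Those at 22.6 and 33.6 kb lie at the start sites of the neighbouring genes Mrps15 and Oscp1, so the first is the 1 of them at Csf3r itself. The regions at -27.9, -6.6, -5.5, 6.3 and 40.9 kb appeared with CMP and those at 7.8, 27.3 and 43.0 kb with GMP. Fcgr2b had 8, 13 and 14 open regions, with 6 of 13 CMP peaks not in LT-HSC, and Fcgr3 had 7, 9 and 11. CMP and GMP were separated by staining for CD16/32, the proteins that Fcgr3 and Fcgr2b encode. A difference between CMP and GMP at these genes cannot be told apart from the gate. Il6ra went the other way, with 11 open regions in LT-HSC and 9 in both CMP and GMP, and 4 of its 11 LT-HSC peaks were absent from CMP. Il1r1 kept 10, 10 and 12 but exchanged some. Its intronic region at 15.6 kb and its exonic region at 69.9 kb were open in CMP and GMP of both genotypes and in no other list, and its region at 59.4 kb in LT-HSC of both genotypes and in no other list.

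**Figure D2:**
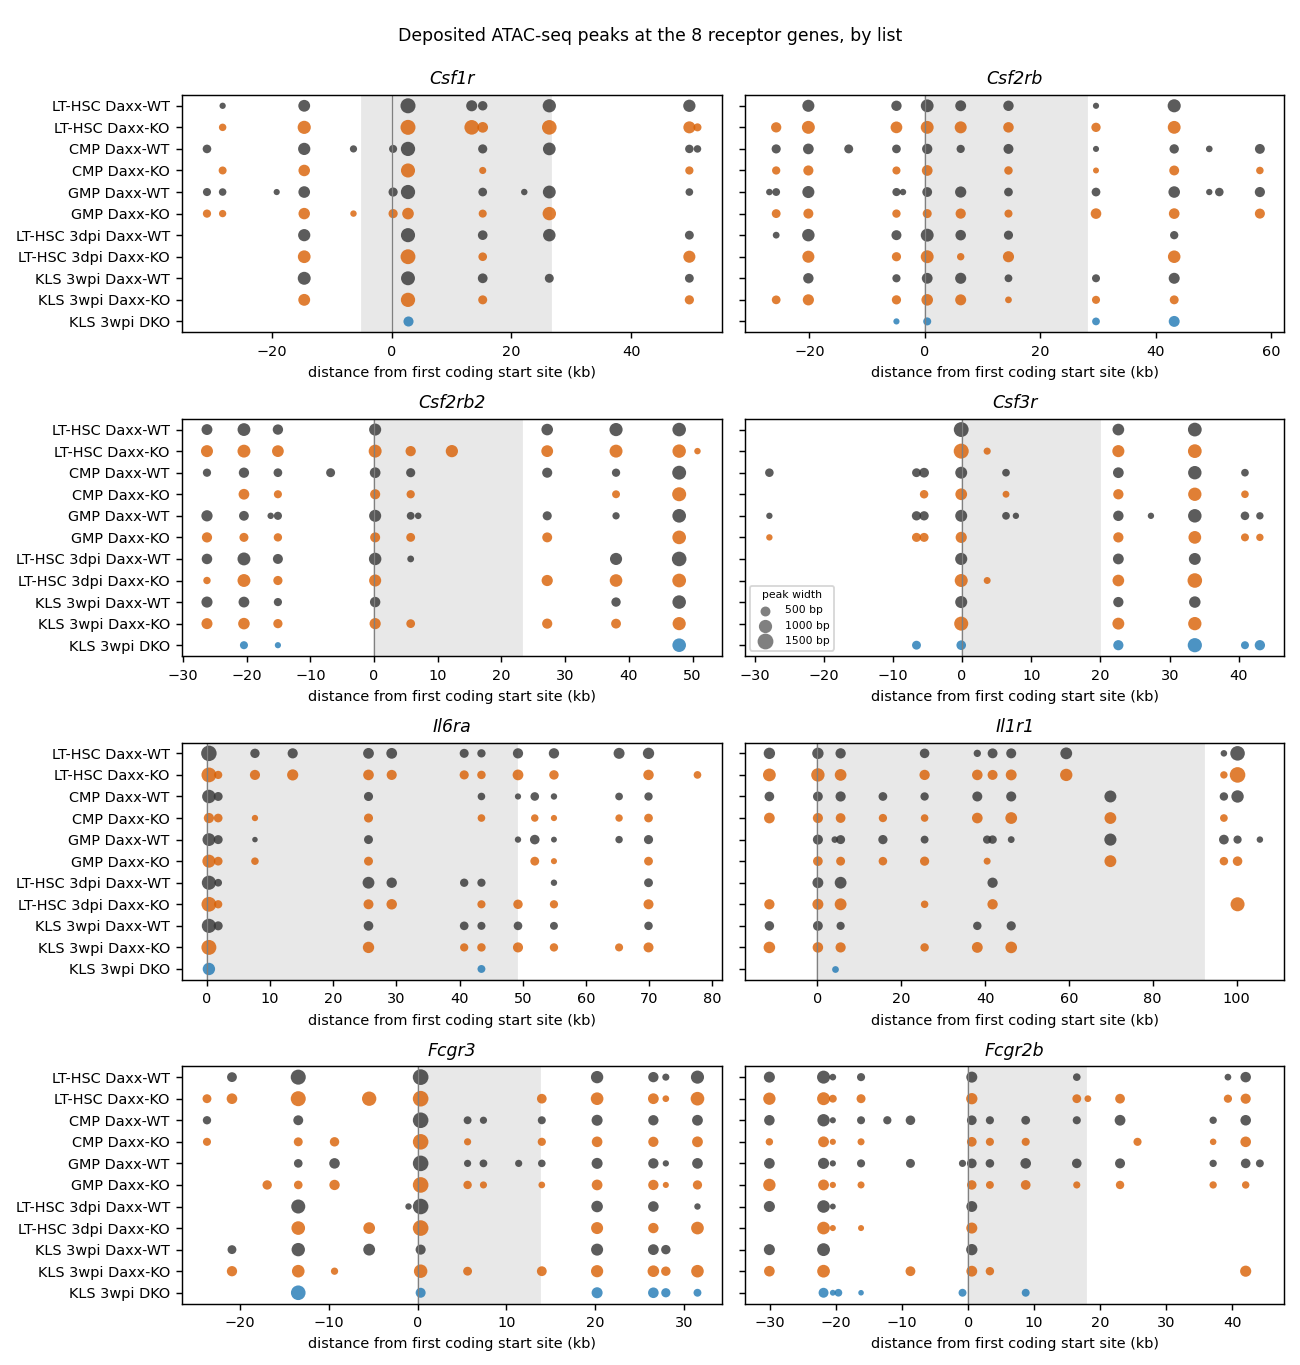
Peaks at each receptor gene in the 11 lists (vertical axis), placed by distance from the first coding start site in kb (horizontal axis). Dot area grows with peak width, grey shading marks the gene, and black, orange and blue are Daxx-WT, Daxx-KO and DKO. At Csf3r the DKO row shares peaks at -6.6, 40.9 and 43.0 kb with progenitor rows and with no LT-HSC or other KLS row.

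In Daxx-KO cells the number of receptor peaks did not rise along the same path, but the whole lists shortened. They held 70455 peaks in LT-HSC, 50590 in CMP and 49677 in GMP, and the shares of new receptor peaks stayed above those of the lists. LT-HSC, CMP and GMP had 67, 58 and 65 receptor peaks. Of the 58 CMP peaks, 14 (24.1%) had no LT-HSC peak, against 16.1% of all Daxx-KO CMP peaks, and 23 of 67 LT-HSC peaks (34.3%) had no CMP peak, against 41.3%. Between CMP and GMP, 16 of 65 GMP peaks (24.6%) were new, against 21.0%, and 10 of 58 CMP peaks (17.2%) were not seen in GMP, against 22.6%. Regions open in CMP and GMP but not LT-HSC were 11 (12.2%, against 6.29% of all), and regions open in LT-HSC alone were 16 (17.8%, against 30.1%). The genotypes differed in list length, with 50590 Daxx-KO CMP peaks and 49677 Daxx-KO GMP peaks against 66070 and 65306 in Daxx-WT, and the part of this in the counts was not tested.

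Set side by side within each population, Daxx-KO LT-HSC held more receptor peaks than Daxx-WT LT-HSC, and Daxx-KO CMP and GMP held fewer, close to the shares of the whole lists in CMP and GMP. In LT-HSC, 12 of 67 Daxx-KO peaks (17.9%) had no Daxx-WT peak, against 13.9% of all, and 1 of 56 Daxx-WT peaks (1.79%), the one 65.3 kb from the start of Il6ra, had no Daxx-KO peak, against 6.78%. The 12 lay at Csf1r (51.1 kb), in the first intron of Csf2rb2 (5.7 kb) and at 12.2 and 50.8 kb from its start, in Csf3r (3.6 kb), at Il6ra (1.8 and 77.7 kb), at Fcgr3 (14.0, -5.4 and -23.7 kb) and at Fcgr2b (18.1 and 23.0 kb). Those at 51.1 kb of Csf1r, 50.8 kb of Csf2rb2 and 77.7 kb of Il6ra lie inside the neighbouring genes Hmgxb3, Ncf4 and She. The Il6ra peak at 65.3 kb also lies inside She. The Csf3r region at 3.6 kb was found in 2 lists, LT-HSC and LT-HSC 3 d.p.i., both Daxx-KO, where it was 391 and 369 bp wide. In CMP, 4 of 58 Daxx-KO peaks (6.9%, against 6.26%) and 19 of 73 Daxx-WT peaks (26.0%, against 28.5%) had no partner, and in GMP 3 of 65 (4.62%, against 4.55%) and 22 of 83 (26.5%, against 27.6%). At Csf3r the CMP list of Daxx-KO cells lacked the peaks at -27.9 and -6.6 kb that Daxx-WT cells had, and both were present in Daxx-KO GMP.

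In the lists labelled with a time, LT-HSC 3 d.p.i. had 9 of 42 Daxx-KO peaks (21.4%, against 24.1% of all) and 5 of 38 Daxx-WT peaks (13.2%, against 8.68%) without a partner, and KLS cells had 11 of 48 (22.9%, against 31.8%) and 3 of 40 (7.5%, against 8.06%). The KLS shares turned with list length. With both lists at equal length, taken by fold enrichment, 6 of 34 Daxx-KO peaks (17.6%, against 21.3%) and 12 of 40 Daxx-WT peaks (30.0%, against 20.6%) had no partner. Peaks shared by both genotypes were wider in Daxx-KO at 39 of 55 receptor regions in LT-HSC (63.7% of all shared peaks were), 23 of 33 in LT-HSC 3 d.p.i. (66.7%) and 26 of 37 in KLS (71.9%). They were wider in Daxx-KO at 13 of 54 in CMP (29.3%) and 18 of 62 in GMP (29.2%). Median log2 width ratios were 0.12 at the receptor genes against 0.04 over all shared peaks in LT-HSC, 0.15 against 0.11 in KLS and -0.09 against -0.06 in CMP. Width and number thus moved in the same direction as in the whole lists.

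The tables of differential sites give a scaled read number in every library for windows that the study's caller had listed as different in these libraries, so every listed site was chosen for its difference, and the limma values here are a description of size and spread rather than an independent test. Adjusted p-values were taken over all windows the caller had tested. No member site had overlapping groups, which such a listing favours. The same share over all listed sites was not counted, so separation of groups sets no member site apart.

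In LT-HSC 3 d.p.i., 12 of the 13 listed sites at the receptor genes had lower values in Daxx-KO cells and 1 had higher values, where 29.1% of all listed sites were higher. None passed the adjusted threshold of 0.05 with limma (smallest adjusted p = 0.301), nor did any site of the table (0.0% higher and 0.0% lower). At an unadjusted p under 0.05 (limma) the count was 12 of 13, against 11454 of 11927 over the table. Voom on the recovered reads called 7, against 2547 higher and 5451 lower over the table. Outside peaks 10 of the 11 sites were lower, where 14.0% of such sites over the table were higher. Both sites over peaks were lower too, where 66.3% of such sites over the table were higher.

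The single higher site of LT-HSC 3 d.p.i. was in the first intron of Il1r1, 46.5 kb from its start. Its scaled read values were 146, 129 and 110 in Daxx-KO against 60.9 and 75.0 in Daxx-WT. The log2 difference was 0.90 (SE 0.24, limma, adjusted p = 0.347, and voom, adjusted p = 0.000527), with groups apart as at every listed receptor site. No peak was listed there in LT-HSC 3 d.p.i. of either genotype, while the peak lists of KLS and of the LT-HSC labelled without a time had one in both genotypes.

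The same place in Il1r1 was listed again in KLS cells, in other mice and with the other Cre. At 46.4 kb the values were 106, 172 and 126 in Daxx-KO against 81.2 and 73.4 in Daxx-WT, a log2 difference of 0.77 (SE 0.32, limma, adjusted p = 1.0; voom, adjusted p = 0.0386). A further site in the same intron, at 38.1 kb, had 128, 212 and 122 in Daxx-KO against 86.7 and 82.5 in Daxx-WT, a log2 difference of 0.81 (SE 0.34, limma, adjusted p = 1.0; voom, adjusted p = 0.0390). Both sites were thus higher in 3 of 3 Daxx-KO libraries, although the Daxx-KO libraries spread widely and groups were apart at every listed receptor site. The peaks there were also wider in Daxx-KO, 1035 bp against 652 bp at 46.2 kb and 905 bp against 548 bp at 38.1 kb. The site near 46 kb was the 1 receptor site listed in both Daxx-KO tables, which share no library.

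These intronic elements are shown because they hold listed sites with higher values in Daxx-KO KLS, which limma did not call. The same places had lower values in DKO cells, as described below. Each sequence is the 201 bases of the plus strand of GRCm38 around the highest summit in Daxx-KO KLS, the first from chr1:40263213-40263413 and the second from chr1:40271200-40271400. Neither holds the letters GAGGAAGT or their complement ACTTCCTC, searched for here as the Pu.1 motif. The core GGAA, on either strand, occurs 6 times in the first and 4 times in the second, and 92.4% of windows of this length around the highest summits of the 44694 Daxx-KO KLS peaks hold it, with a median of 3.
Il1r1 38.1 kb: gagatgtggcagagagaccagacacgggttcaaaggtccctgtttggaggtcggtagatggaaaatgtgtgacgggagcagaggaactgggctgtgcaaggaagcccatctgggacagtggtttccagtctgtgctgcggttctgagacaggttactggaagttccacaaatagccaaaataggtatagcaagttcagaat
Il1r1 46.2 kb: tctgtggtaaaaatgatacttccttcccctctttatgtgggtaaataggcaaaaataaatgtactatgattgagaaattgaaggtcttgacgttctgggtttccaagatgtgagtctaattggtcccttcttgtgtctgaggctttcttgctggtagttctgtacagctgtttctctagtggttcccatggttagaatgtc

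The lower sites of LT-HSC 3 d.p.i. included 6 at Il6ra. The one with the largest difference, in intron 6 of the gene at 32.4 kb, had 11.0, 0.95 and 9.5 in Daxx-KO against 31.6 and 21.6 in Daxx-WT, a log2 difference of -2.11 with a wide error (SE 0.71, limma, adjusted p = 0.725; voom, adjusted p = 0.0907). The one with the smallest unadjusted p (limma) lay in the first intron at 20.2 kb. It had 22.9, 18.1 and 16.9 in Daxx-KO against 55.2 and 46.9 in Daxx-WT, a log2 difference of -1.36 (SE 0.24, limma, adjusted p = 0.301, and voom, adjusted p = 0.000247). Voom also called the sites at 11.3, 14.6 and 43.9 kb, with log2 differences of -1.25, -1.07 and -0.83 by limma. The site over the start-site peak of Il6ra, at 1.0 kb, differed least, with 188, 192 and 189 in Daxx-KO against 259 and 265 in Daxx-WT, a log2 difference of -0.47 that shrank to -0.12 when libraries were scaled by their mean reads per window. At the other genes the largest difference per gene was -1.30 at Csf1r (-10.1 kb), -1.84 at Csf3r (49.5 kb, inside Oscp1), -1.43 at Fcgr3 (16.2 kb), -1.54 at Il1r1 (70.1 kb) and -0.96 at the site between Csf2rb and Csf2rb2. Values at these sites were low, for example 9.18, 13.4 and 16.9 in Daxx-KO against 33.8 and 31.9 in Daxx-WT at Csf1r, and 4.59, 3.82 and 12.7 against 27.0 and 22.5 at Csf3r. Fcgr2b had no listed site.

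In KLS cells, 7 of the 16 listed receptor sites were higher and 9 lower in Daxx-KO, where 19.1% of all listed sites were higher. Limma called 0 of the 16 at the adjusted threshold (smallest adjusted p = 0.284), and 0.0% higher and 0.0% lower over the table. An unadjusted p under 0.05 (limma) was reached by 16 of 16, against 16749 of 17311 over the table. Voom called 9, against 2434 higher and 9039 lower over the table. All 5 sites over peaks were higher, against 61.0% over the table, and 9 of the 11 outside peaks were lower, where 8.6% over the table were higher. In this table receptor sites thus split by whether they lay in a peak, which they did not in LT-HSC 3 d.p.i.

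Fcgr2b had 3 higher sites and no lower one in KLS. At 34.8 kb, downstream of the gene, values were 40.1, 28.0 and 28.2 in Daxx-KO against 7.3 and 9.17 in Daxx-WT, a log2 difference of 1.83 (SE 0.31, limma, adjusted p = 0.284). At 41.6 kb they were 53.5, 78.7 and 74.3 against 35.6 and 24.1, a log2 difference of 1.19 (SE 0.33, limma, adjusted p = 0.292). At -8.6 kb they were 44.5, 48.1 and 41.4 against 22.8 and 27.5. All 3 Daxx-KO libraries stood above both controls at each of these sites, and groups were apart at every listed receptor site. The peak list of Daxx-KO KLS had peaks at 42.0 kb and -8.7 kb that the Daxx-WT list lacked.

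Csf2rb2 had a higher site in its first intron, at 5.6 kb, with 47.9, 37.6 and 41.4 in Daxx-KO against 21.0 and 21.8 in Daxx-WT, a log2 difference of 0.95 (SE 0.29, limma, adjusted p = 0.334). The peak at this place was called in Daxx-KO KLS and not in Daxx-WT KLS, and likewise in Daxx-KO and not Daxx-WT cells of the LT-HSC labelled without a time. In LT-HSC 3 d.p.i. it was the other way round, with a peak in Daxx-WT. Il6ra had a higher site in its last exon, at 41.9 kb, with 75.7, 71.7 and 64.0 against 44.7 and 25.2, a log2 difference of 1.04 (SE 0.33, limma, adjusted p = 0.386).

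Csf3r, by contrast, had 4 lower sites and no higher one in Daxx-KO KLS, with log2 differences from -1.65 to -1.26, all outside the peaks of Daxx-WT and Daxx-KO KLS. The largest, at 10.1 kb, had 7.79, 4.37 and 6.58 in Daxx-KO against 21.9 and 20.6 in Daxx-WT. At 43.4 kb values were 13.4, 14.0 and 9.41 against 29.2 and 48.1, a log2 difference of -1.56, at a place where DKO KLS had a peak. Csf1r had 3 lower sites, the largest at 20.1 kb with 11.1, 3.5 and 3.76 against 20.1 and 24.1. The lower sites of Csf2rb and Il1r1, at 16.5 and 4.4 kb, had log2 differences of -1.54 and -1.85.

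**Figure D3:**
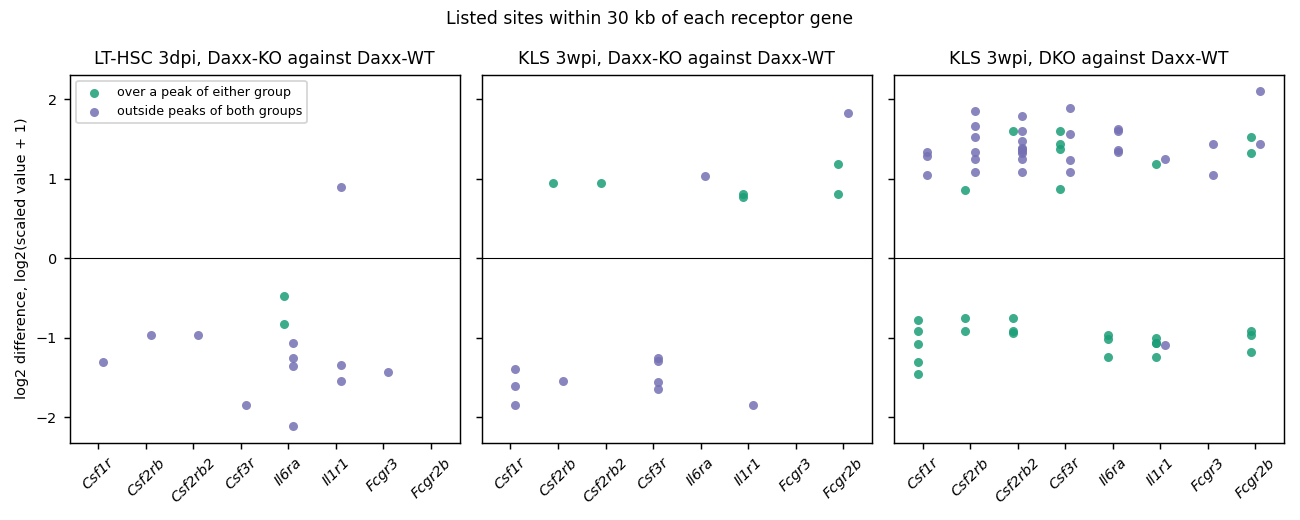
Log2 difference (vertical axis, on the log2(scaled value + 1) scale) of every listed site within 30 kb of each receptor gene, in the 3 tables. Green points overlap a peak of either group and purple points lie outside peaks of both. Sites that count for both Csf2rb and Csf2rb2 are drawn under each gene. Counted as sites, in Daxx-KO KLS the 5 over peaks are above 0. In DKO cells 18 of 27 sites over peaks are below 0 and 29 of 30 outside peaks above it.

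Among the comparisons of genotypes, DKO against Daxx-WT KLS had the largest shares of unmatched receptor peaks. Of the 40 peaks of Daxx-WT KLS at these genes, 24 (60.0%) had no DKO peak, against 48.4% of all Daxx-WT peaks, and 11 of the 27 DKO peaks (40.7%) had no Daxx-WT peak, against 21.4%. The DKO list was shorter, and with both lists at equal length, taken by fold enrichment, the shares were 43.5% against 37.1% lost and 51.9% against 36.1% gained. These are single lists with no replicate error, and the smaller number of receptor peaks gives wide 95% exact binomial intervals, 43.3 to 75.1% for the lost and 22.4 to 61.2% for the gained share, which cover counting error only. Shared peaks were wider in DKO at 3 of 16 receptor regions, against 21.6% of all.

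The losses were spread unequally over the genes. Il1r1 lost all 5 of its Daxx-WT KLS peaks, Csf1r lost 4 of 5 with the first-intron peak remaining, and Il6ra 6 of 8. Csf2rb lost 4 of 7, Csf2rb2 3 of 6, Fcgr2b 2 of 3 and Fcgr3 2 of 7. Csf3r lost 0 of 3, of which 2 are start sites of neighbouring genes. Of the regions open in both Daxx-WT and Daxx-KO KLS, 20 of 37 had no DKO peak (44.6% of all such regions), with 17 of 26 distal regions (65.0%) and 3 of 11 near a start site (22.5%). Those 3 were the start sites of Csf2rb2, Il1r1 and Fcgr2b. Over all genes with a start-site peak in Daxx-WT KLS, 13.8% had none in DKO. Of 11 regions open in Daxx-KO but not Daxx-WT KLS, 10 had no DKO peak, against 90.7% of all.

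The DKO table listed 57 sites at the receptors, 38 higher and 19 lower, with 72.1% of all listed sites higher. Limma called 36 higher and 9 lower, against 67.3% and 14.9% of all listed sites. The split depended on how libraries were scaled. With scaling by mean reads per window in place of the constants in the table's header, which moved the median log2 difference of all listed sites by -0.67, the calls at the receptors were 1 higher and 19 lower, and over all listed sites 3213 higher and 13812 lower against 34252 and 7603. No receptor site changed sign. Where sites lay mattered as much. Over peaks 9 were higher and 18 lower (30.2% of all such sites were higher) with a median log2 difference of -0.92 against -0.86, and outside peaks 29 of 30 were higher (88.2% of all) with a median of 1.37 against 1.41. Mean reads per window were 9.98 and 16.0 for DKO against 8.35 and 7.45 for Daxx-WT, and the part of this difference in the results was not tested. Leaving out either DKO library left 0 calls in both directions.

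The first-intron site of Csf1r, at 2.7 kb, had the largest decrease of the receptor sites in this table. Its values were 161 and 112 in DKO and 375 and 364 in Daxx-WT. Both DKO libraries were below both controls, with groups apart as at every listed receptor site. The log2 difference was -1.45 (SE 0.36, limma, adjusted p = 0.00118), or -2.15 with scaling by mean reads. At 49.5 kb, downstream of Csf1r and over a region inside the neighbouring gene Hmgxb3, values were 54.1 and 89.9 against 212 and 142. The log2 difference was -1.30 (limma, adjusted p = 0.00472). The sites at 15.3 kb (-1.08, limma, adjusted p = 0.0310), -14.6 kb (-0.91, adjusted p = 0.107) and 25.8 kb (-0.78, adjusted p = 0.268) were lower too, the last 2 short of the threshold. These 5 sites cover the 5 regions where Daxx-WT KLS had a Csf1r peak. The 3 higher Csf1r sites lay outside peaks.

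Il6ra, Il1r1 and Fcgr2b followed at their peaks. The site at 1.5 kb in the first intron of Il6ra, which spans part of its start-site peak, had 125 and 99.3 in DKO and 229 and 305 in Daxx-WT, a log2 difference of -1.24 (SE 0.36, limma, adjusted p = 0.00811). In Il1r1 the intronic elements with higher values in Daxx-KO, which limma did not call, had lower values in DKO. At 38.2 kb values were 28.6 and 42.2 in DKO and 87.0 and 80.1 in Daxx-WT, a log2 difference of -1.24 (limma, adjusted p = 0.00797), and at 46.2 kb they were 75.3 and 55.3 against 140 and 134, a log2 difference of -1.07 (limma, adjusted p = 0.0313). The Daxx-KO and DKO comparisons share their 2 Daxx-WT libraries, scaled anew in each table, and the difference between the 2 knockouts was not tested. Il1r1 sites at -11.4 kb and 59.4 kb were also called lower, at -1.07 and -1.09, while 5.4 kb stood at -1.0 (limma, adjusted p = 0.0576). Beside it, at 4.2 kb, a site was higher, with 59.4 and 86.2 against 34.6 and 27.4 (log2 difference 1.19, limma, adjusted p = 0.0122), a call that mean-read scaling removed (adjusted p = 1.0).

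At Fcgr2b a decrease and an increase lay side by side. The site over the start-site peak, chr1:170975351-170976700, had 64.7 and 64.6 in DKO and 138 and 158 in Daxx-WT, a log2 difference of -1.18 (SE 0.36, limma, adjusted p = 0.0136). The adjoining site upstream, chr1:170976701-170978100, had 104 and 111 in DKO and 34.6 and 38.4 in Daxx-WT, a log2 difference of 1.53 (SE 0.36, limma, adjusted p = 0.000591). Groups were apart at both sites, as at every listed receptor site, and here in opposite directions. The peak lists showed the same exchange, the DKO list lacking the start-site peak and holding one at -0.9 kb that otherwise appeared in GMP Daxx-WT alone. At -19.6 kb values were 178 and 136 in DKO and 59.5 and 63.6 in Daxx-WT (log2 difference 1.32, limma, adjusted p = 0.00379), over a DKO peak found in no other list. With mean-read scaling the decrease kept its call (adjusted p = 0.00378) and the increases at -0.9 and -19.6 kb did not (adjusted p = 0.281 and 0.957).

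**Figure D4:**
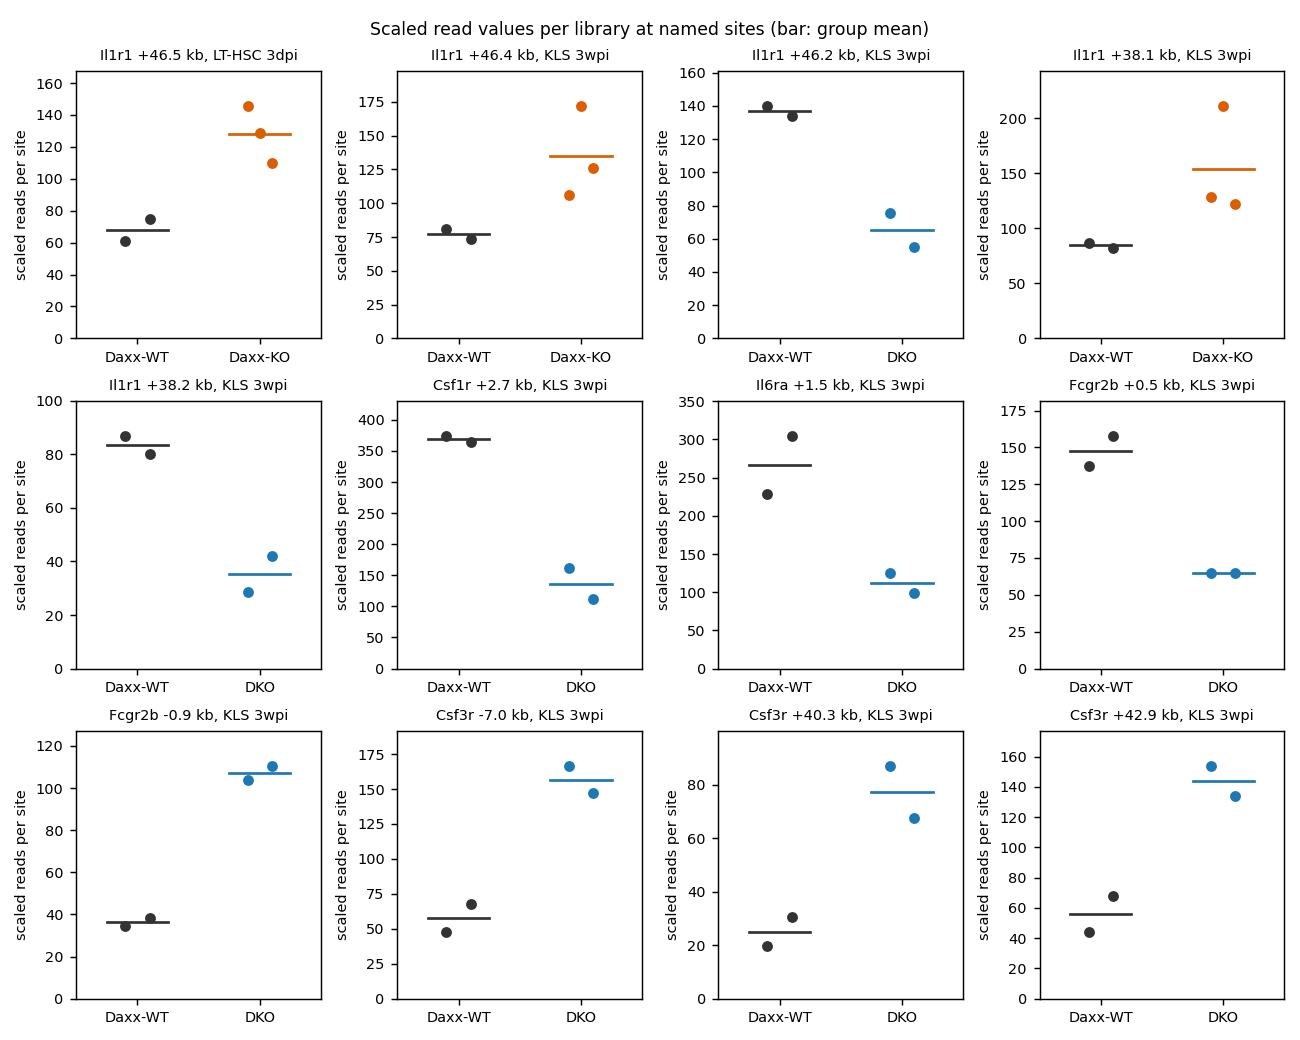
Scaled reads per site (vertical axis, from 0) in each library at 12 sites of Il1r1, Csf1r, Il6ra, Fcgr2b and Csf3r. Points are libraries and bars are group means. Daxx-KO libraries lie above Daxx-WT at the Il1r1 sites, DKO libraries below Daxx-WT at Il1r1, Csf1r, Il6ra and the Fcgr2b start site, and above it at -0.9 kb of Fcgr2b and at Csf3r.

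The paralogs showed smaller decreases at their start sites. The site over the Csf2rb2 start had 61.5 and 59.0 in DKO and 125 and 105 in Daxx-WT, a log2 difference of -0.92 (SE 0.36, limma, adjusted p = 0.104), and the one over the Csf2rb start 98.6 and 75.9 against 141 and 151, a log2 difference of -0.75 (SE 0.36, limma, adjusted p = 0.332). Neither passed the threshold, and groups did not overlap, as at every listed receptor site. Both passed it with mean-read scaling (limma, adjusted p = 0.00915 and 0.0251). The largest increases lay outside peaks. In intron 3 of Csf2rb, at 12.5 kb, values were 32.9 and 52.5 against 8.87 and 13.2 (log2 difference 1.85, limma, adjusted p = 2.42e-05). Downstream of Csf2rb2, at 43.1 kb and inside the neighbouring gene Ncf4, they were 37.1 and 45.9 against 14.2 and 8.77 (1.79, limma, adjusted p = 4.36e-05). Fcgr2b, Fcgr3 and Il6ra had their largest increases outside peaks as well. In the last exon of Fcgr2b, at 17.4 kb, values were 33.9 and 34.7 against 11.5 and 4.39 (log2 difference 2.10, limma, adjusted p = 1.13e-06). In the first intron of Fcgr3, at 3.2 kb, they were 73.2 and 82.4 against 28.4 and 27.4 (1.44, limma, adjusted p = 0.00129). Upstream of Il6ra, at -26.9 kb and inside the neighbouring gene Atp8b2, they were 28.6 and 36.5 against 8.87 and 11.0 (1.62, limma, adjusted p = 0.000262).

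Both paralogs carry the Pu.1 motif within their start-site peaks. Read values at both start sites were lower in DKO cells, short of the threshold unless libraries were scaled by mean reads. The DKO list kept the Csf2rb peak, at percentile 7.68, and lacked the Csf2rb2 peak, which was thereby not shown to be closed. Both stretches are shown because they hold the same letters. Each is 28 bases of GRCm38 in the direction of the gene, from chr15:78325972-78325999 on the plus strand and chr15:78305677-78305704 on the minus strand, with the motif in capitals.
Csf2rb start: ggcactggcaACTTCCTCaatctgctct
Csf2rb2 start: ggcactggcaACTTCCTCaatctgctct
The RefSeq promoter of Csf2rb2 and the matching stretch of Csf2rb were identical at 280 of 303 aligned positions (92.4%). Reads from such copies can be shared or lost depending on how the aligner treated repeats, which the sources used here do not state, so values at these start sites are uncertain.

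Csf3r had no lower site in the DKO table. All 8 of its listed sites were higher and 7 were called, and at Fcgr3 both listed sites were higher and called. None of its 3 Daxx-WT peaks was lost, of which those at 22.6 and 33.6 kb are the start sites of Mrps15 and Oscp1. At -7.0 kb values were 167 and 147 in DKO and 47.9 and 68.0 in Daxx-WT, a log2 difference of 1.44 (SE 0.36, limma, adjusted p = 0.00136). At 40.3 kb they were 87.0 and 67.5 against 19.5 and 30.7 (log2 difference 1.60, limma, adjusted p = 0.000296), and at 42.9 kb 154 and 134 against 44.4 and 68.0 (log2 difference 1.37, limma, adjusted p = 0.00255). These 3 sites lay over peaks of the DKO list that Daxx-WT KLS lacked, the last 2 inside Oscp1. The largest difference, at -12.2 kb and outside peaks, was 30.8 and 39.4 against 9.76 and 7.68 (log2 difference 1.89, limma, adjusted p = 1.51e-05), and it was the 1 higher receptor site still called with mean-read scaling (adjusted p = 0.0408). The region at 43 kb was listed in opposite directions in the KLS tables, lower in Daxx-KO and higher in DKO.

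The DKO peaks that no LT-HSC or other KLS list held numbered 7 of 27 at the receptor genes, and 6 of these were peaks of CMP or GMP lists, where 67.0% of the 2634 such DKO regions of the genome were. They lay at Csf3r (-6.6, 40.9 and 43.0 kb), in the first intron of Il1r1 (4.1 kb) and at Fcgr2b (8.7 and -0.9 kb), and the one outside progenitor lists was the Fcgr2b peak at -19.6 kb. Counted from the other side, 34 receptor regions were open in CMP or GMP and in no LT-HSC list or other KLS list, and DKO cells shared 6 (17.6%) of them, against 7.84% of 22511 over the genome. Their fold enrichments in the DKO list ran from 3.55 to 5.17. Markers of other cells moved as well. Of 4 mature neutrophil genes, Ngp and S100a8 had a start-site peak in DKO cells, and Ltf alone in Daxx-WT KLS. Of 6 granulocyte and monocyte progenitor genes, DKO cells had one at Cebpe and Ctsg, and Daxx-WT KLS at Mpo and Irf8. Of 7 stem cell genes 4 had one in both groups. Of 5 erythroid and megakaryocyte genes, DKO cells had one at Itga2b and Daxx-WT KLS at 3. The part of other cell types in these peaks was not tested.

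The motif GAGGAAGT, or ACTTCCTC on the other strand, was looked for in all regions. It was present in 17 of the 108 receptor regions (15.7%), against 14.6% of all regions, and by list in 14.6 to 21.4% of receptor peaks against 8.96 to 14.7% of all. In the DKO list 5 of 27 receptor peaks (18.5%) held it, against 8.96% of the list and 8.36% of its peaks of like width. Of merged regions with a Daxx-WT KLS peak, 5 of 17 kept in DKO cells held it (13.5% of all such regions). Of those lost 5 of 23 did (18.2%), and of regions gained 3 of 10 (10.8%). These counts cover the whole region merged from 11 lists, so the motif can lie outside the KLS peak, and they do not compare kept with lost peaks. Within the Daxx-WT KLS peaks themselves 6 of 40 held it, against 12.8% of the list. Csf3r had a motif in 5 of its 12 regions. A match of these letters is not a measured binding site.

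Among the regions with the motif, the following are shown for the changes reported above, each in the direction of the gene with the motif in capitals. The Csf3r element (chr4:126018106-126018163, plus strand) was open in Daxx-WT CMP, in GMP of both genotypes and in DKO cells. The Il6ra element (chr3:89911369-89911426, minus strand), in the first intron within the site that was lower in DKO cells, lies in a peak of Daxx-WT KLS that the Daxx-KO and DKO lists lacked. The Fcgr2b element (chr1:170973090-170973212, minus strand), in the first intron, holds a motif on each strand and was open in CMP and GMP of both genotypes and in Daxx-KO KLS.
Csf3r -6.6 kb: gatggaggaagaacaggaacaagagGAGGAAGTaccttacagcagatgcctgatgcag
Il6ra 1.8 kb: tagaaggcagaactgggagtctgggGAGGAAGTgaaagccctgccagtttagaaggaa
Fcgr2b 3.3 kb: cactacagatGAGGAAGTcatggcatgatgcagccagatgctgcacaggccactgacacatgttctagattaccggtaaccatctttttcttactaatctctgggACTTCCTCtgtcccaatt
RefSeq promoters (GRCm38.p6, 250 bases before to 50 after a start) were matched for 6 of the 8 genes, giving 8 promoters, of which 1, that of Csf2rb2, held the motif, against 3.2% of 32851 promoters.

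Related genes gave a frame for these counts. In Daxx-KO LT-HSC 3 d.p.i., a listed higher site lay within 30 kb of 1 of the 8 receptors, Il1r1, against 19.7% of all genes. It lay near 11 of 19 other cytokine and Fc receptors, Kit and Flt3 among them, and near 10 of 15 genes of the JAK-STAT, Fc receptor and MyD88 signalling paths. A lower site lay near 7, 8 and 10 of them, against 36.4%. In Daxx-KO KLS a higher site lay near 5 of 8 receptors (15.8% of all genes), 7 of 19 other receptors and 2 of 15 signalling genes, and a lower one near 4, 14 and 14 (53.7%). In DKO cells a higher site lay near 8, 17 and 14 (66.6%) and a lower one near 6, 15 and 12 (48.5%). A start-site peak of Daxx-WT KLS was missing in DKO at 3 of 15 other receptor genes that had one (Epor, Fcgr1 and Il2rg) and at 1 of 15 signalling genes (Irak1), beside 3 of 7 here. Longer genes offer more room for a listed site, and these counts are not corrected for it.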

How the data were processed

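ATAC-seq libraries (24 in 11 groups) were used as deposited. The submitters' processing notes name CASAVA 1.8.4, cutadapt 1.13, STAR 2.5.3 and bedtools for mm10, and the peak caller and the treatment of repeated sequence are not given in the sources used here. For LT-HSC, CMP and GMP without a time, the authors deposited 1 list of peak positions per group. For LT-HSC 3 d.p.i. and KLS 3 w.p.i. the authors deposited 1 list per group of peaks reproducible between replicates, with a fold enrichment and a score for each peak. The 3 site tables hold, per the file headers, a scaled read signal for each library in windows listed by diffReps, together with the authors' own group means, log2 fold changes and p-values, which were not used. Values below 50 were whole reads within 0.05 after undoing the scaling constants. No column belonged to a sample outside the series.

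Peaks of the 11 lists were merged where they overlapped by 1 bp, and assigned, like listed sites, to genes within 30 kb (GENCODE M21). Genotypes and populations were compared by the share of peaks with no overlapping peak in the other list, beside the same share over the whole list, with no test. Site values were fitted with limma 3.58.1 (R 4.3.3) on log2(scaled value + 1), with a pseudocount of 1 and no filter on low values, per table over all its sites, with two-sided p-values adjusted by Benjamini-Hochberg over every window tested by the caller. A site was called at an adjusted p under 0.05. The fit was tested on simulated data. Other steps used Python 3.11.15, pandas 2.3.3 and pysam 0.24.0. The 8 genes were all named by rule, each with its start-site peak, its site of largest difference per table and its peaks that differed between lists. The genes, lists and tests were chosen with earlier results of these data known. Alternatives changed the pseudocount, filter, scaling, window, overlap, peak threshold, adjustment and replicates, with voom on the recovered reads added after seeing the data.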

Additional observations from a re-analysis of the deposited data

How the results depend on the processing

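Across the named sites, 184 values kept their direction and side of the threshold under the alternatives tried, 21 crossed to the called side, 22 crossed out of it, and 0 reversed. In LT-HSC 3 d.p.i. the 0 higher and 0 lower calls became 1 and 11 with adjustment over listed sites alone and 1 and 6 with voom, and of the listed sites 0 higher and 2 lower lay over peaks. Over all 11927 sites the calls in these 2 settings became 3068 and 8360, and 2547 and 5451. In Daxx-KO KLS the 0 and 0 calls became 7 and 9 with adjustment over listed sites alone and 5 and 4 with voom, and 0 lower sites lay over peaks. Over all 17311 sites they became 2873 and 13838, and 2434 and 9039. In DKO cells the 36 higher calls became 1 with scaling by mean reads per window, 21 (of 22 listed) within 10 kb and 7 (of 9 listed) over peaks, and the 9 lower calls became 16 with a pseudocount of 4 and 19 with adjustment over listed sites alone, with voom or with scaling by mean reads. Over peaks, 3136 of the 4270 higher sites of the whole table were called in the main setting. Over all 50928 sites, 34252 of 36740 higher sites were called, and scaling by mean reads took these calls to 3213. The 7603 lower calls became 9837 with a pseudocount of 4, and 13444, 13099 and 13812 in the other 3 settings. Leaving out each DKO or Daxx-WT library in turn gave 0 to 32 higher and 0 to 8 lower calls, the lowest without either DKO library, and 22 higher and 4 lower without Daxx-WT replicate 1. Leaving out a library left the 0 calls of both Daxx-KO tables at 0. Scaling by mean reads moved the median of all listed sites by 0.33, 0.46 and -0.67 in log2 in the 3 tables.

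Replicate numbers were shared by the KLS groups. Deviations of same-numbered libraries from their group means correlated at only 0.01 and 0.05 in the Daxx-KO table and 0 in the DKO table. This gave no sign that the numbers pair the samples, but deviations from means of so few libraries cannot decide it. With the replicate number as a block, Daxx-KO KLS had 1 call higher, at Fcgr2b (34.8 kb), and 1 lower, at Il1r1 (4.4 kb). Over the table the block gave 223 higher and 2073 lower calls among 17311 sites. The DKO counts stayed within 1.5 times. Since pairing by these numbers was not shown, the block calls are a description of this setting only. No paired analysis was possible for LT-HSC 3 d.p.i. because its columns carry no replicate number. The planned edgeR test on the recovered reads was not run, and voom on those reads was run in its place.

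For peaks, 0.0% of Daxx-WT LT-HSC receptor peaks within 10 kb had no Daxx-KO peak, 30.0% of Daxx-WT KLS peaks had no Daxx-KO peak with lists of equal length (20.6% of all), and 50.7% of Daxx-KO LT-HSC peaks had no CMP peak with an overlap of at least 50% required. All other shares kept within 1.5 times or their counting interval. Depth is known for the site tables alone.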
